A study of Mus musculus with 13 samples.

Results

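Splenic CD4+ T helper cells of Eomes-TKO mice treated with a 4-1BB agonist antibody were compared with the GFP+ cells of equally treated Eomes-GFP mice. The comparison rests on 5 of the 13 libraries of the series: treated Eomes-TKO replicates 1 and 2, and GFP+ replicates 1, 2 and 3. Members were chosen by the labels for genotype, antibody and sorted fraction. RNA levels were read for all genes, and the genes that separate GFP+ from GFP− cells were followed into each Eomes-TKO library.

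All mice of the series also carried the Foxp3-Thy1.1 allele, received NK1.1-depleting antibody (50 µg on days −2 and 5) and were engrafted with Vk12653 multiple myeloma cells on day 0. The 4-1BB agonist or control IgG was given at 20 µg on days 10, 13 and 16, and spleens were taken on day 18. Cells were sorted as TCR+, CD4+ and Thy1.1-negative, a gate that removes cells with the Foxp3 reporter. Beside the 2 treated Eomes-TKO and 3 GFP+ libraries, 3 GFP− libraries of treated Eomes-GFP mice, 3 Eomes-TKO libraries under IgG and 2 Eomes-GFP libraries under IgG were used for reference. The Eomes-TKO and IgG cells were not divided by GFP. The labels do not describe how the Eomes-TKO line was made and give no age. The comparison therefore sets an undivided population of one genotype against a sorted fraction of another, and genotype and sorting cannot be told apart in it.

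Eomes is a T-box transcription factor best known from cytotoxic lymphocytes, where it works beside the related factor T-bet, encoded by Tbx21. In CD4+ T cells it marks a subset that makes granzyme K and other killing granule proteins. The 4-1BB receptor, encoded by Tnfrsf9, is a costimulatory receptor of activated T cells. Tcf7 encodes TCF-1, a factor of naive and progenitor T cells.

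Total estimated counts were between 6080975 and 10881146 per library, with 6080975 and 9655357 in the treated Eomes-TKO libraries and 7514385, 8077054 and 9639179 in the GFP+ libraries. The unit of level is CPM (each count over its TMM-scaled library total), in which 3 counts equal 0.271 to 0.468 CPM. The T cell identity list (Cd3e, Cd4, Trac and others) summed to 4921 and 6313 CPM in treated Eomes-TKO cells and to 7624, 8670 and 7744 CPM in GFP+ cells. Treated Eomes-TKO replicate 1 had the lowest sum of all 13 libraries and the largest share of counts in genes without a proper symbol, 3.95% against 2.24% to 3.65% elsewhere. Some results that depend on it are given with and without it. Killing granule, effector transcription factor and terminal effector genes had fewer lower calls without it than given below. Their list medians without it were −2.29, −1.755 and −2.12 on the log2 scale against GFP+ cells. In bulk RNA, fewer cells of a type and less RNA per cell cannot be told apart.

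Eomes itself was at 3.59 and 8.03 CPM in treated Eomes-TKO replicates 1 and 2, against 570, 706 and 685 CPM in the GFP+ libraries. The groups were far apart, with a log2 change, treated Eomes-TKO over GFP+ cells, of −6.75 (SE 0.33, adjusted p = 2.5e-08). In GFP− cells Eomes was at 3.54, 1.83 and 2.26 CPM. Replicate 1 was about level with the highest GFP− library, with overlapping exact 95% counting intervals, and replicate 2, with an interval of 6.34 to 10.04 CPM, was above all 3. Eomes was at 1.36, 2.96 and 3.19 CPM in Eomes-TKO cells under IgG, below the 14 and 16.8 CPM of undivided Eomes-GFP cells under IgG. The table gives whole genes, so counts from a shortened transcript cannot be separated from those of a complete one.

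The markers of the GFP+ cells followed Eomes. Gzmk, which encodes granzyme K, was at 0.312 and 5.01 CPM in treated Eomes-TKO cells and at 337, 382 and 368 CPM in GFP+ cells (log2 change −6.91, SE 0.47, adjusted p = 8.74e-07). Replicate 2 held 48 Gzmk counts and replicate 1 held 2, so the remnant came almost wholly from replicate 2. Ret, a receptor tyrosine kinase for GDNF family ligands, was at 0.156 and 0.209 CPM in treated Eomes-TKO cells against 60.4, 83.7 and 71.5 CPM in GFP+ cells. Its 3 counts over both Eomes-TKO libraries, against 1740 in GFP+ cells, put it at 0.26% of the GFP+ level (exact 95% interval 0.0537% to 0.762%, counting error only). Tcf7 was at 1579 and 2010 CPM in treated Eomes-TKO cells and at 655, 379 and 696 CPM in GFP+ cells. It was thus higher in both Eomes-TKO libraries, with a log2 fold change of 1.64 (SE 0.22, adjusted p = 7.28e-05). Tcf7 stayed detectable in GFP+ cells, so the marker separates levels and not presence from absence.

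**Figure D1:**
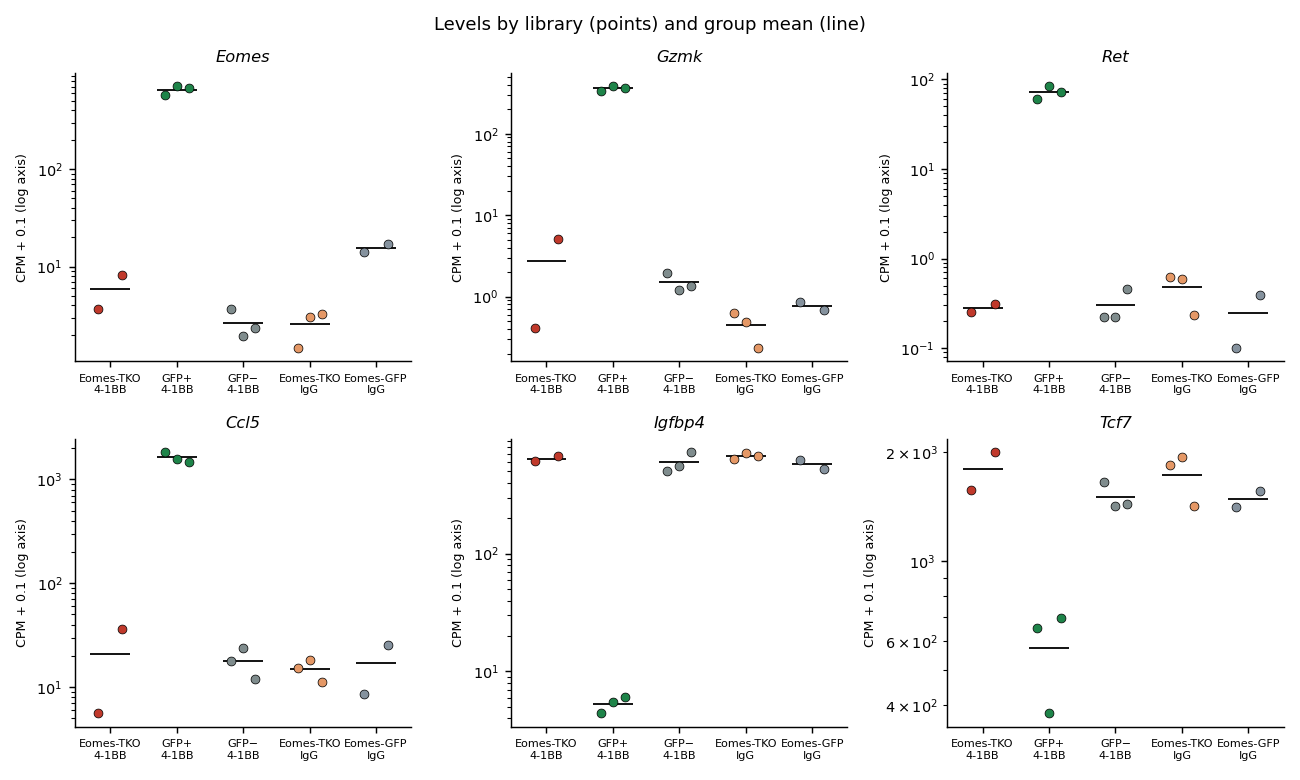
Levels of Eomes, Gzmk, Ret, Ccl5, Igfbp4 and Tcf7 in CPM plus 0.1 on a log axis, one point per library and a line at the group mean. The 2 treated Eomes-TKO libraries lie on the same side as the GFP− and IgG libraries for every gene shown, and the 3 GFP+ libraries stand apart, above them for Eomes, Gzmk, Ret and Ccl5 and below them for Igfbp4 and Tcf7.

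The promoter of Gzmk is shown because this gene had one of the largest losses and holds the T-box core letters GGTGTGA close to its start. The window comprises the 250 bases before the RefSeq start, chr13:113180966-113181215 on GRCm38.p6, minus strand, 5′ to 3′, with the motif in capitals at 75 to 69 bases before the start.
Gzmk: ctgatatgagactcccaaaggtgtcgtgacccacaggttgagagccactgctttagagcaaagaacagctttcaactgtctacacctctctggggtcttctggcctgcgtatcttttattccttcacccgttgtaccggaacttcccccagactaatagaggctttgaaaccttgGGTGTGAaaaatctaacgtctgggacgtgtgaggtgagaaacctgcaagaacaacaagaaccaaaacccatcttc
The same letters, searched on both strands, stood in 3.33% of 32851 RefSeq promoter windows, in 6.9% of the 116 windows found for genes raised in GFP+ cells and in 6.56% of the 61 windows found for genes lowered in them. The share was thus about equal in genes that moved in opposite directions. Short stretches around the motif are given for 3 further raised genes that are described below, each 5′ to 3′ on the plus strand.
Nkg7 (chr7:43437113-43437137): gggggtagggaaGGTGTGAgaagaa
Adgrg1 (chr8:94976966-94976996): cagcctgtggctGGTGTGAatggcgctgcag
Kcnc1 (chr7:46396218-46396246): ttctcacctcGGTGTGAcgggggcgcggg
A match describes letters in a window and not a bound site.

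Over all genes, 4859 of 14059 tested genes (34.6%) differed between treated Eomes-TKO and GFP+ cells at an adjusted p of at most 0.05. Of these, 2214 (15.7% of tested genes) were higher and 2645 (18.8%) lower in treated Eomes-TKO cells. Changes of more than 2-fold comprised 1205 higher genes (8.57%) and 1387 lower genes (9.87%). Under upper-quartile scaling, which moved the median of all genes up by 0.16 on the log2 scale, the split turned to 3126 higher and 2019 lower. Without treated Eomes-TKO replicate 1, 3060 genes were called. Replicates carry different numbers in their library names, but the labels do not say that these numbers are animals, so the p-values reflect library-to-library spread, which may be technical.

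**Figure D2:**
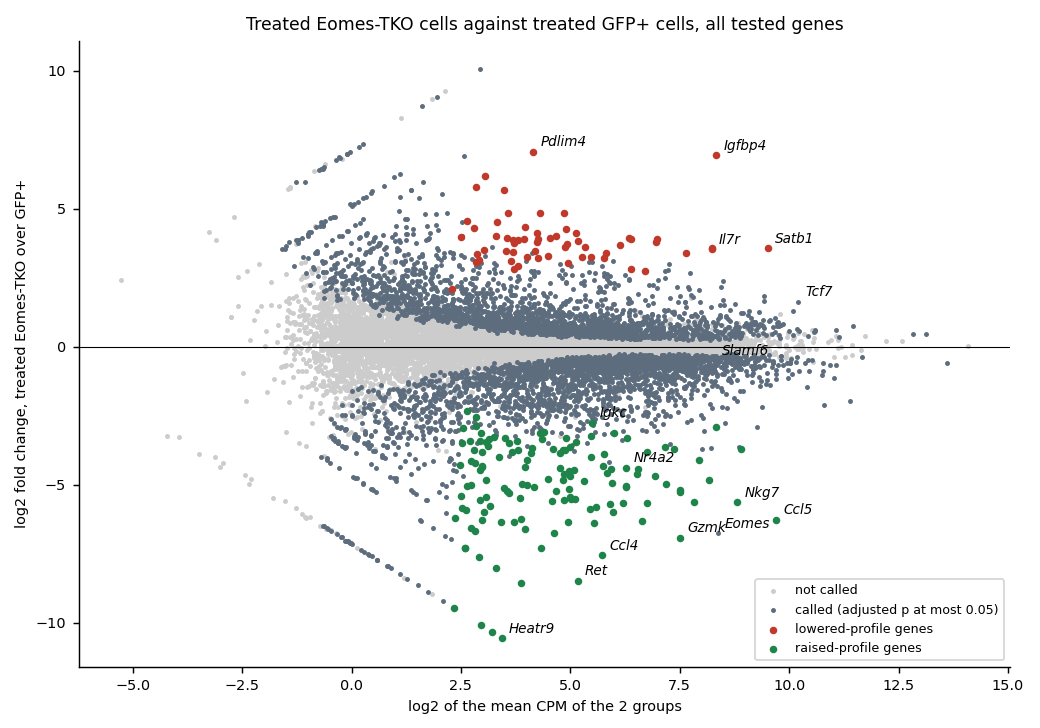
Log2 fold change of treated Eomes-TKO over GFP+ cells against the log2 of the mean CPM of both groups, for every tested gene. Called genes are dark, genes raised in GFP+ over GFP− cells are green and genes lowered there are red; all 132 green genes lie below 0 and all 60 red genes above it.

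List counts here and below stand beside 15.7% higher and 18.8% lower among all tested genes. Among killing granule genes, 16 of 19 tested were lower in treated Eomes-TKO cells, with a median log2 fold change of −2.45 beside 0.0003 over all genes. Gzmb, which encodes granzyme B, was at 0.937 and 4.38 CPM in treated Eomes-TKO cells against 190, 139 and 107 CPM in GFP+ cells (log2 change −5.65, SE 0.53, adjusted p = 1.15e-05). Nkg7, a granule membrane protein needed for degranulation, was at 6.71 and 27.6 CPM in treated Eomes-TKO cells and at 740, 1203 and 703 CPM in GFP+ cells (log2 change −5.63, SE 0.57, adjusted p = 5.58e-05). Both genes were low in both Eomes-TKO libraries, with replicate 1 the lower. Prf1, the pore-forming perforin, kept a larger remainder, with 35.8 and 43.1 CPM in treated Eomes-TKO cells against 220, 223 and 207 CPM in GFP+ cells. That remainder was close to GFP− cells, which held 30.1, 37.4 and 34.9 CPM of Prf1. Fasl, the death receptor ligand, was at 10.2 and 15.7 CPM in treated Eomes-TKO cells and at 119, 109 and 117 CPM in GFP+ cells (log2 change −3.13, adjusted p = 3.44e-07). Gzma reached 0 and 1.25 CPM in treated Eomes-TKO cells against 9.15, 7.33 and 6.66 CPM in GFP+ cells, a difference whose adjusted p was 0.0145 and became 0.082 without Eomes-TKO replicate 1. Lamp1, a general lysosome membrane protein, was the only killing granule gene to rise, and Klrk1 and Gzmm did not pass the test. Gzmm passed without GFP+ replicate 2 (adjusted p = 0.0158).

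Effector chemokine genes were far lower in treated Eomes-TKO cells than in GFP+ cells. Ccl5, a chemokine of effector T cells, was at 5.47 and 35.8 CPM in treated Eomes-TKO cells and at 1855, 1589 and 1475 CPM in GFP+ cells (log2 change −6.26, SE 0.81, adjusted p = 0.000366). It was at 17.6, 23.6 and 11.9 CPM in GFP− cells and at 8.39 to 25.4 CPM in the IgG libraries. Eomes-TKO replicate 2 lay above and replicate 1 below all of these. Ccl4 was at 0 and 0.939 CPM in treated Eomes-TKO cells and at 88.4, 153 and 76.3 CPM in GFP+ cells (log2 change −7.54, SE 0.68, adjusted p = 6.37e-06). Ccl3, a related neighbour of Ccl4, was at 0.312 and 4.07 CPM in treated Eomes-TKO cells and at 165, 304 and 125 CPM in GFP+ cells. All 3 chemokines were far below GFP+ cells in both Eomes-TKO libraries and at their lowest in replicate 1. Ifng, the cytokine of type 1 helper cells, was at 3.90 and 8.03 CPM in treated Eomes-TKO cells, at 94.4, 142 and 96.9 CPM in GFP+ cells and at 12.7, 20.6 and 17.9 CPM in GFP− cells. Its log2 change against GFP+ cells was −4.17 (SE 0.30, adjusted p = 1.55e-07), and both Eomes-TKO values lay under the GFP− range. Il10, which encodes an inhibitory cytokine, was at 0 and 1.04 CPM in treated Eomes-TKO cells against 19.5, 32.3 and 19.8 CPM in GFP+ cells (log2 change −5.28, adjusted p = 1.89e-05). Of 14 chemokine and cytokine genes tested, 6 fell, while Tnf and Ltb rose, Tnf no longer passing when Eomes-TKO replicate 2 was left out (adjusted p = 0.0569). The share of the list that rose was close to the 15.7% higher among all tested genes. The T helper cytokine gene Il21 did not pass the test (log2 change −1.33, SE 0.79, adjusted p = 0.231), with 3.59 and 15.1 CPM in treated Eomes-TKO cells and 18.3, 39.9 and 14.8 CPM in GFP+ cells. Il21 passed with no filter on low counts, at −1.30 with an adjusted p of 1.81e-05.

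Inhibitory receptor genes fell in 9 of 15 cases, with a list median of −2.04 on the log2 scale. Pdcd1, which encodes PD-1, was at 15.6 and 26.4 CPM in treated Eomes-TKO cells and at 210, 362 and 224 CPM in GFP+ cells (log2 change −3.64, SE 0.31, adjusted p = 2.98e-06). Havcr2, which encodes TIM-3, was nearly absent at 0.156 and 2.82 CPM in treated Eomes-TKO cells against 99.1, 103 and 81.3 CPM in GFP+ cells. Entpd1, the ectoenzyme CD39, was at 2.65 and 5.84 CPM in treated Eomes-TKO cells and at 141, 173 and 137 CPM in GFP+ cells. Tigit and Lag3 behaved alike in direction, with log2 fold changes of −4.62 (SE 0.63, adjusted p = 0.000329) and −3.83 (SE 0.71, adjusted p = 0.00279). Nt5e, the ectoenzyme CD73 that acts after CD39, went the other way, with 55.4 and 76.7 CPM in treated Eomes-TKO cells against 18.6, 17.2 and 26.4 CPM in GFP+ cells (log2 change 1.67, adjusted p = 1.49e-05). Btla and Cd200r1 also rose. Btla lost its call without Eomes-TKO replicate 1 (adjusted p = 0.0629), and Cd200r1 lost it without Eomes-TKO replicate 1 or 2 or GFP+ replicate 1 or 3 (adjusted p = 0.0866, 0.146, 0.0839 and 0.0522).

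Of 21 effector and exhaustion transcription factor genes, 17 fell. Ikzf2, which encodes Helios, was at 55.0 and 96.7 CPM in treated Eomes-TKO cells and at 545, 622 and 541 CPM in GFP+ cells (log2 change −2.90, adjusted p = 1.06e-05). Prdm1, which encodes BLIMP-1, was at 11.7 and 16.6 CPM in treated Eomes-TKO cells and at 128, 180 and 119 CPM in GFP+ cells (log2 change −3.32, adjusted p = 5.25e-08). Tox, an exhaustion-associated factor, fell by 2.22 on the log2 scale (adjusted p = 7.78e-09), and Bhlhe40 fell by 3.67 (adjusted p = 3.34e-05). Tbx21 was at 9.68 and 19.8 CPM in treated Eomes-TKO cells and at 40.9, 17.3 and 27.7 CPM in GFP+ cells. The groups overlapped through Eomes-TKO replicate 2 and GFP+ replicate 2, and the difference did not pass the test (log2 change −0.93, SE 0.38, adjusted p = 0.0741). It passed without Eomes-TKO replicate 2, at −1.56 with an adjusted p of 0.0238, and without GFP+ replicate 2, at −1.16 with an adjusted p of 0.0215. It also passed with DESeq2 (adjusted p = 0.0286) and with no filter on low counts (adjusted p = 0.000389). Nr4a1 and Rbpj rose.

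Receptors for chemokines and for costimulation mostly followed the chemokines. Cx3cr1, a receptor of terminal effector cells, was at 2.03 and 2.50 CPM in treated Eomes-TKO cells and at 118, 124 and 113 CPM in GFP+ cells (log2 change −5.68, SE 0.56, adjusted p = 1.82e-05). Cxcr5, the receptor that guides cells to B cell follicles, was at 14.8 and 31.3 CPM in treated Eomes-TKO cells and at 282, 358 and 279 CPM in GFP+ cells. In neither case did the groups overlap. Chemokine receptor and adhesion genes fell in 14 of 21 cases, or in 9 without treated Eomes-TKO replicate 1, and Itgb7, Ccr9, Itga1 and Adgrg5 rose. Itgb7 did not pass without Eomes-TKO replicate 2 (adjusted p = 0.378), GFP+ replicate 1 (0.108) or GFP+ replicate 3 (0.0727). Tnfrsf9, the receptor targeted by the antibody, was at 9.21 and 16.6 CPM in treated Eomes-TKO cells against 54.2, 70.6 and 47.2 CPM in GFP+ cells (log2 change −2.13, SE 0.29, adjusted p = 6.27e-05). Costimulatory receptor genes fell in 10 of 15 cases, or in 6 without treated Eomes-TKO replicate 1, and Tnfrsf25, Cd40lg and Cd226 rose. Klrg1, a lectin-like receptor of terminal effector cells, was at 0.156 and 1.15 CPM in treated Eomes-TKO cells and at 69.6, 68.9 and 45.5 CPM in GFP+ cells (log2 change −6.36, adjusted p = 3.34e-05). Of 8 killer lectin-like receptor genes tested, 6 fell and Klrb1c rose, with 2 falling without treated Eomes-TKO replicate 1 and 3 without replicate 2.

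A list of neuronal and hormone genes, drawn from genes of GFP+ cells with their values known, had 14 tested members. Of these, 7 were lower and 1, the semaphorin and VEGF co-receptor Nrp1, was higher in treated Eomes-TKO than in GFP+ cells, and 6 were lower when either Eomes-TKO library was left out. Adgrg1, an adhesion receptor known from brain and cytotoxic lymphocytes, was at 0.468 and 0.417 CPM in treated Eomes-TKO cells and at 31.9, 66.2 and 48.1 CPM in GFP+ cells (log2 change −6.75, SE 0.50, adjusted p = 1.35e-07). Gcg, the glucagon precursor gene, was at 0.156 and 7.40 CPM in treated Eomes-TKO cells and at 198, 312 and 128 CPM in GFP+ cells, a difference that passed the test. Kcnc1, a voltage-gated potassium channel, was at 0.156 and 0.209 CPM in treated Eomes-TKO cells and at 15.4, 16.6 and 14.8 CPM in GFP+ cells. Ret, Adgrg1 and Kcnc1 were near 0 in both Eomes-TKO libraries, whereas Gcg was near 0 in replicate 1 only. Heatr9, Dpysl5 and Ank3, the last encoding an ankyrin scaffold protein, had no counts in either treated Eomes-TKO library. Taking 3 counts over the group as the floor, they were at least 114.7-fold, 83.4-fold and 55.8-fold lower than in GFP+ cells. Enpp6 had 1 count in treated Eomes-TKO cells and 705 in GFP+ cells, a level of 0.214% (exact 95% interval 0.00542% to 1.20%).

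Genes of naive and quiescent T cells lay on the other side, with 18 of 20 higher in treated Eomes-TKO cells and a median log2 fold change of 1.83. Igfbp4, which encodes a secreted insulin-like growth factor binding protein, was at 607 and 672 CPM in treated Eomes-TKO cells and at 4.30, 5.37 and 5.91 CPM in GFP+ cells (log2 change 6.93, SE 0.19, adjusted p = 1.6e-11). Ccr7, the lymph node homing receptor, was at 361 and 366 CPM in treated Eomes-TKO cells and at 33.8, 35.4 and 33.2 CPM in GFP+ cells (log2 change 3.41, SE 0.11, adjusted p = 6.33e-11). Il7r, the receptor for the survival cytokine IL-7, was at 580 and 529 CPM in treated Eomes-TKO cells and at 50.7, 25.1 and 66.9 CPM in GFP+ cells (log2 change 3.54, SE 0.29, adjusted p = 3.27e-06). These genes had closely matched Eomes-TKO replicates and no overlap with GFP+ cells. Satb1, a chromatin organiser of T cells, rose by 3.57 on the log2 scale (adjusted p = 1.32e-08). Lef1, the partner of Tcf7, rose by 1.66 (adjusted p = 2.17e-06). Klf2, a quiescence factor, did not pass the test, with 298 and 377 CPM in treated Eomes-TKO cells and 276, 306 and 345 CPM in GFP+ cells (log2 change 0.13, SE 0.12, adjusted p = 0.46). Klf3 did not pass either. Pdlim4, a cytoskeletal adaptor, had a log2 fold change of 7.06 (SE 0.39, adjusted p = 8.59e-09), at 38.3 and 32.0 CPM in treated Eomes-TKO cells and 0.277, 0.393 and 0.107 CPM in GFP+ cells.

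Other genes with large rises came from varied roles. Tle1, a co-repressor that partners TCF-1 family factors, was at 17.2 and 15.4 CPM in treated Eomes-TKO cells and at 0.416, 0.131 and 0.107 CPM in GFP+ cells (adjusted p = 2.55e-08). Acvrl1, a receptor for BMP ligands, was at 37.6 and 39.3 CPM in treated Eomes-TKO cells and at 1.11, 0.916 and 1.83 CPM in GFP+ cells (log2 change 4.86, adjusted p = 9.02e-10). Dntt, the template-free polymerase of thymocytes, was at 7.65 and 8.86 CPM in treated Eomes-TKO cells and at 0.139, 0.393 and 0 CPM in GFP+ cells (log2 change 5.52, adjusted p = 2.24e-06). In all 3 the treated Eomes-TKO libraries were close to each other and far above GFP+ cells. Chdh, the choline dehydrogenase gene, had 186 counts in treated Eomes-TKO cells and 2 in GFP+ cells. Ly6c1, a surface glycoprotein of the naive list, was at 45.8 and 66.1 CPM in treated Eomes-TKO cells and at 3.88, 0.786 and 1.40 CPM in GFP+ cells, and Il9r, the IL-9 receptor, was at 9.21 and 19.0 CPM in treated Eomes-TKO cells and at 0, 0.393 and 0.322 CPM in GFP+ cells. Both rose, by 4.83 for Ly6c1 and 5.77 for Il9r on the log2 scale.

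Progenitor and stem-like genes split, with 6 of 20 higher and 10 lower in treated Eomes-TKO cells. The higher ones, Tcf7, Il7r, Lef1, Ccr7 and Bach2 among them, also belong to the naive list, and the lower ones include Eomes and Gzmk. Slamf6, a surface marker of progenitor T cells, was at 278 and 243 CPM in treated Eomes-TKO cells and at 400, 341 and 372 CPM in GFP+ cells. It fell by 0.51 on the log2 scale (SE 0.16, adjusted p = 0.0243), a call lost under upper-quartile scaling (adjusted p = 0.131). Leaving out Eomes-TKO replicate 1 or 2 also ended it (adjusted p = 0.0549 and 0.142), as did leaving out GFP+ replicate 1 or 3 (adjusted p = 0.0809 and 0.063). Cytokine receptor genes split too, with 9 of 20 higher, among them Il6ra (log2 change 3.58) and Ifngr2 (4.28), and 6 lower, among them Il2rb (−2.90), the IL-2 and IL-15 receptor chain of effector cells.

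All 26 mitosis genes and 22 of 25 DNA replication genes were lower in treated Eomes-TKO cells than in GFP+ cells, with medians of −2.15 and −1.14 on the log2 scale. Mki67, which encodes the proliferation marker Ki-67, was at 65.4 and 190 CPM in treated Eomes-TKO cells and at 727, 501 and 522 CPM in GFP+ cells (log2 change −2.19, SE 0.53, adjusted p = 0.0117), a call lost when treated Eomes-TKO replicate 1 was left out (adjusted p = 0.081). The 26 mitosis genes summed to 249 and 594 CPM in treated Eomes-TKO cells, to 2136, 2064 and 1598 CPM in GFP+ cells and to between 546 and 670 CPM in GFP− cells. Both Eomes-TKO sums were above the 112, 153 and 104 CPM of Eomes-TKO cells under IgG, and replicate 2 was near the GFP− level. Without treated Eomes-TKO replicate 1, 23 mitosis genes and 15 replication genes were called lower. Glycolysis genes fell in 11 of 17 cases, with a median of −0.548 on the log2 scale that became −0.342 without that library. Pdk1, a kinase that restrains pyruvate use in mitochondria, rose by 2.67 (adjusted p = 1.41e-09). Bcl2, the survival factor, was at 378 and 291 CPM in treated Eomes-TKO cells against 176, 159 and 179 CPM in GFP+ cells. It rose by 0.96 on the log2 scale (adjusted p = 7.54e-05).

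Further lists moved less uniformly, beside 15.7% higher and 18.8% lower among all tested genes. Terminal effector genes fell in 15 of 20 cases with none rising, and Klf6, Tbx21, Anxa1, Itgb1 and S1pr5 did not pass the test. Itgb1 was at −1.20 without Eomes-TKO replicate 2, and it passed with no filter on low counts, at −0.42 with an adjusted p of 0.0141. Interferon response genes rose in 8 of 30 cases, Tgtp1 among them with a log2 change of 2.75, while Mx1 and Gbp3 fell. The median of the interferon list, 0.205 on the log2 scale, became −0.023 without treated Eomes-TKO replicate 2. Follicular helper genes gave 4 higher and 6 lower of 15, with a median of −0.01 that became 0.15 under upper-quartile scaling and 0.34 without treated Eomes-TKO replicate 1. Survival and death genes gave 3 higher (Bcl2, Birc3 and Tnfrsf10b) and 11 lower of 20, the higher share being close to that of all tested genes. T cell identity genes fell in 9 of 13 cases, with a median of −0.58, but 1 fell without treated Eomes-TKO replicate 1. Cd4 itself was at 668 and 915 CPM in treated Eomes-TKO cells and at 1102, 1347 and 1151 CPM in GFP+ cells, a call absent when Eomes-TKO replicate 1 was left out (adjusted p = 0.0892).

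**Figure D3:**
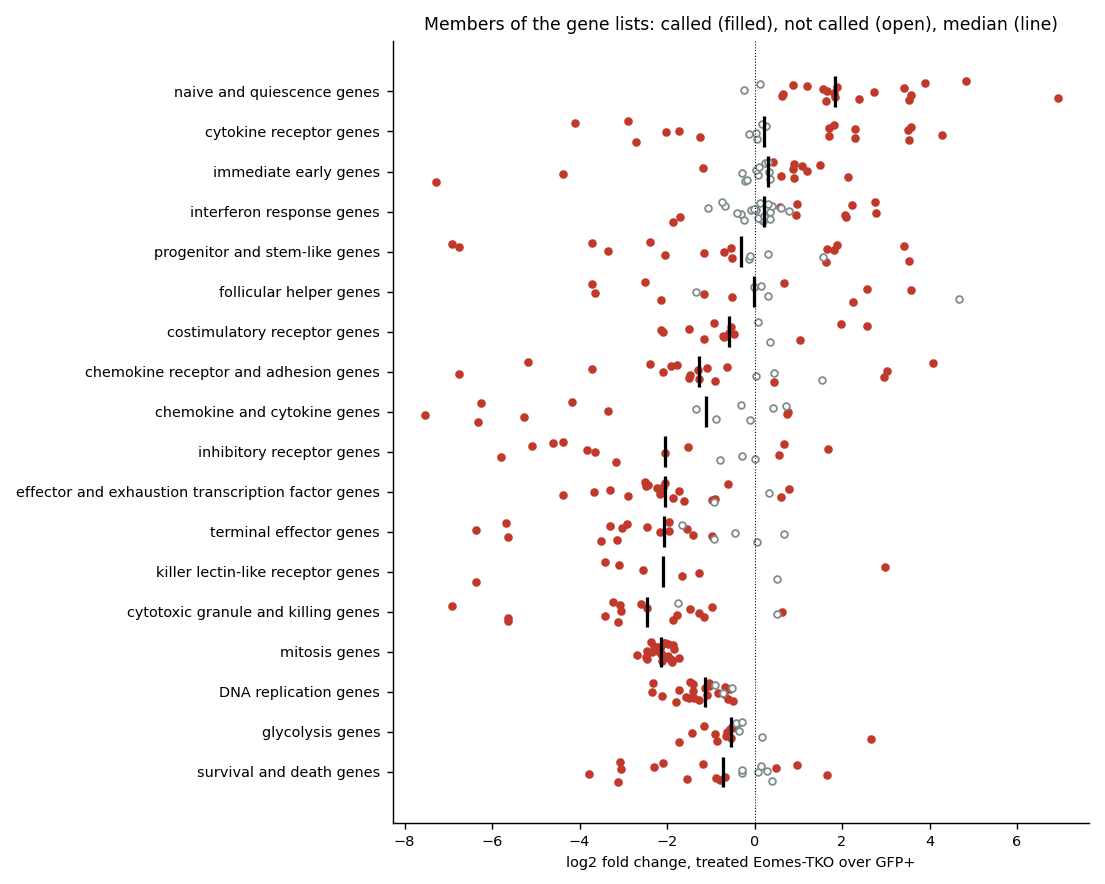
Fold change (log2) of treated Eomes-TKO over GFP+ cells for the members of 18 gene lists, filled where called, open where not, with a line at the list median. Naive genes lie mostly right of 0, with a median of 1.83, killing granule, inhibitory receptor, transcription factor and mitosis genes lie mostly left of it, and cytokine receptor, progenitor and immediate early genes fall on both sides.

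To follow the Eomes-positive profile into each Eomes-TKO library, 132 raised and 60 lowered genes were taken from GFP+ against GFP− cells. These genes were called there (as were 37.1% of all genes, 20.7% higher and 16.5% lower in GFP+ cells), differed by at least 3 on the log2 scale and had a mean of at least 10 CPM in the higher group, with Eomes left out. For each gene and library a traced share was computed, on which 0% is the mean of GFP− cells and 100% the mean of GFP+ cells. Because GFP+ libraries enter both the choice of genes and the comparison with treated Eomes-TKO cells, the calls of the profile genes in that comparison (132 of 132 raised genes lower, 60 of 60 lowered genes higher) are bound up with the choice and stand as descriptions. The shares in Eomes-TKO and IgG libraries use libraries that did not choose the genes, but they are read against GFP− means that did.

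Little of the raised profile was traceable. Its median share was −1.51% in treated Eomes-TKO replicate 1 and 0.759% in replicate 2, and no gene of either library reached the GFP+ range or a share of 50%. The share was under 5% for 128 of 132 genes in replicate 1 and for 118 in replicate 2. Summed over the 132 genes, replicates 1 and 2 held 383 and 778 CPM, GFP+ libraries 12884, 15783 and 12163 CPM, and GFP− libraries 609, 736 and 585 CPM. Replicate 1 was thus below every GFP− library and replicate 2 slightly above. Eomes-TKO cells under IgG held 543, 574 and 525 CPM and Eomes-GFP cells under IgG 539 and 614 CPM, so replicate 1 was also below every IgG library and replicate 2 above every one.

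The 2 Eomes-TKO libraries differed in how many genes showed a trace. In replicate 1, 9 of 132 raised genes (6.82%) exceeded all 3 GFP− libraries, beside 33.8% of all tested genes. In replicate 2, 54 of 132 (40.9%) did so, beside 28.2% of all tested genes. Replicate 2 exceeded replicate 1 in 113 of 132 raised genes (85.6%), beside 50.5% of all tested genes. Against the 3 Eomes-TKO libraries under IgG, which had no part in the choice of genes, 12 raised genes (9.09%, beside 27% of all genes) stood above all 3 in replicate 1, and 76 (57.6%, beside 24.6%) did in replicate 2. On the same measure the GFP− libraries, which entered the choice of genes, had 43.2%, 50% and 30.3%. Eomes-GFP libraries under IgG had 25.8% and 31.8%. The share of Eomes-TKO replicate 2 was thus somewhat above the 50% of GFP− replicate 2. The T cell identity sum was also higher in replicate 2, at 6313 against 4921 CPM in replicate 1, as was the mitosis sum, and the part of either in the traces was not tested.

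**Figure D4:**
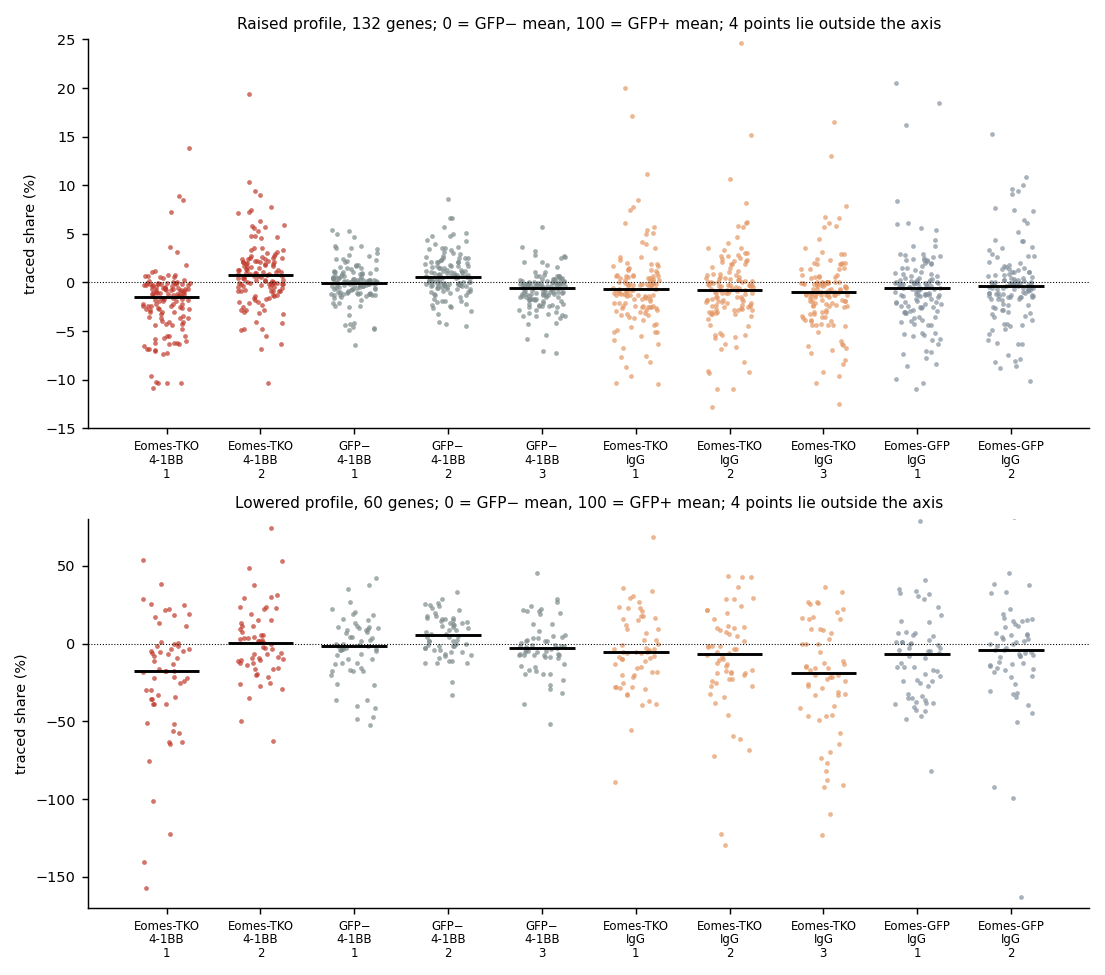
Traced share in percent of each raised gene (top) and lowered gene (bottom) by library, where 0 is the GFP− mean and 100 the GFP+ mean, with a line at the median; 4 points lie outside each axis. The raised-profile medians of all 10 libraries sit within a few percent of 0, with treated Eomes-TKO replicate 1 lowest at −1.51% and replicate 2 highest at 0.759%.

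By role, the traces in replicate 2 were small and spread over several groups. Of all tested genes, 33.8% in replicate 1 and 28.2% in replicate 2 were above all GFP− libraries, the level beside which the counts below stand. GFP− libraries also took part in choosing the genes below, so these counts stand as descriptions. Among genes called higher in GFP+ than in GFP− cells, the 15 killing granule genes had a median share of −3.32% in replicate 1 and 1.90% in replicate 2, with 0 and 9 genes above all GFP− libraries. The 8 chemokine and cytokine genes had −0.912% and 2.57% (0 and 5 genes), and the 9 inhibitory receptor genes −1.30% and 2.10% (2 and 6 genes). The 17 transcription factor genes had −13.8% and 3.57% (1 and 9 genes). Terminal effector genes, 14 in number, were below 0 in both, at −7.58% and −1.68%. In GFP− replicate 2 the medians were 1.26% for killing granule genes and 2.12% for chemokines and cytokines. They were 1.51% for inhibitory receptors and 2.66% for transcription factors there, so treated Eomes-TKO replicate 2 was only slightly higher. Eomes-TKO IgG replicate 2 had 5.53% for killing granule genes, above both treated libraries. For the chemokine, receptor and transcription factor lists no IgG library exceeded treated replicate 2. Single genes reached further in treated Eomes-TKO replicate 2, each the highest of a list in that library and named after its values were seen. Il21, a follicular helper cytokine, had a share of 49.6% and Cd27, a costimulatory receptor, of 46.8%. Trac, the T cell receptor alpha constant gene, had 42.6%, Ccr4 40.6%, Stat4 30.2% and Cd160 26.7%. Pou2af1, a coactivator of octamer-binding factors, had 73.3% in replicate 1 and 179% in replicate 2, with 15.9 and 22.6 CPM in treated Eomes-TKO cells, 17.2, 18.7 and 17.0 CPM in GFP+ cells and 10.9, 10.6 and 12.4 CPM in GFP− cells. All 7 genes differ between GFP+ and GFP− cells by less than 3 on the log2 scale, Pou2af1 and Trac by 0.64 and 0.42, so none is in the raised profile. Lag3, a raised-profile gene at 6.40 and 20.9 CPM in treated Eomes-TKO cells, had a share of 7.14% in replicate 2. In the lists led there by Il21, Cd27, Trac, Ccr4, Stat4 or Cd160, other genes led in replicate 1. These were Slamf6 (27.1%), Cd244a (16.7%), Cd28 (13.4%), Ikzf3 (6.5%), Csf1 (2.39%), Cd3e (2.08%) and Adgrg1 (0.237%). The killer lectin-like receptor and neuronal lists reached higher in replicate 1, with 36.1% for Klrb1f and 11.5% for Sema4a. Their highest shares in replicate 2 were 19.5% and 5.35%.

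Only 5 raised genes stood above all GFP− libraries in both Eomes-TKO libraries: F2rl2, Igkc, Ntn1, Pvrig and Srgap3, named after their values were seen. That is 3.79% of the profile, beside 11.5% of all tested genes. Ntn1, which encodes the guidance cue netrin-1, had the highest share of replicate 1, 13.9%, with 2.34 and 1.77 CPM in treated Eomes-TKO cells, 9.15, 10.7 and 11.2 CPM in GFP+ cells and 0.610, 1.46 and 1.08 CPM in GFP− cells. Undivided Eomes-GFP cells under IgG held more of it, 5.09 and 3.43 CPM. F2rl2, a thrombin receptor, was at 1.72 and 2.40 CPM in treated Eomes-TKO cells against 12.6, 14 and 9.99 CPM in GFP+ cells, and the 5 IgG libraries of both genotypes held 1.78 to 4.04 CPM. Pvrig, an inhibitory receptor related to the TIGIT axis, was at 0.468 and 0.730 CPM in treated Eomes-TKO cells, against 32.8, 26.7 and 25.6 CPM in GFP+ cells, and at 0.89 to 2.35 CPM under IgG. Srgap3, a regulator of Rac in neurons, was at 0.625 and 2.09 CPM in treated Eomes-TKO cells, at 30.1, 29.6 and 30.6 CPM in GFP+ cells and at 0.521 to 2.13 CPM under IgG. For these 4 genes the treated Eomes-TKO libraries lay within or below the range of the IgG libraries.

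Igkc, the constant region of the immunoglobulin kappa light chain, was the profile gene with the largest trace in replicate 2 and behaved differently. It was at 7.34 and 15.6 CPM in treated Eomes-TKO cells, at 76.1, 82.0 and 79.6 CPM in GFP+ cells and at 0.488, 0.487 and 0.0903 CPM in GFP− cells. The Eomes-TKO libraries under IgG held 1.67, 0.0986 and 0 CPM. Both treated Eomes-TKO values thus lay between the GFP+ libraries and all others, with traced shares of 8.86% and 19.4%. Treated Eomes-TKO cells were lower than GFP+ cells (log2 change −2.76, SE 0.51, adjusted p = 0.00168). Against GFP− cells the log2 fold change was 5.09 (adjusted p = 0.0697), and against Eomes-TKO cells under IgG it was 4.21 (adjusted p = 0.0707), so neither passed the test.

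More immunoglobulin genes had counts beside Igkc in treated Eomes-TKO cells than in GFP+ cells. Of 166 kappa genes, 4 and 8 had counts in treated Eomes-TKO replicates 1 and 2, against 1, 2 and 1 in GFP+ libraries. Jchain, which joins secreted immunoglobulin units and is made by plasma cells, was at 4.68 and 3.23 CPM in treated Eomes-TKO cells and at 0.554, 0.262 and 0 CPM in GFP+ cells (log2 change 3.87, SE 0.92, adjusted p = 0.00575). Lambda genes summed to 2.97 and 0.209 CPM in treated Eomes-TKO cells and to 0 in all GFP+ libraries. Of 10 plasma cell and myeloma markers, 6 were tested, of which Jchain rose and Irf4, Prdm1, Slamf7 and Igkc fell. Activated T cells also express Irf4, Prdm1 and Slamf7. The list summed to 103 and 135 CPM in treated Eomes-TKO cells and to 518, 666 and 515 CPM in GFP+ cells. Tnfrsf17, the plasma cell receptor BCMA, had no counts in any library. Sdc1, the plasma cell surface marker CD138, was at 0 and 0.313 CPM in treated Eomes-TKO cells and between 0 and 0.262 CPM in GFP+ cells. The mice carried a plasma cell tumour, and its part in these counts was not tested.

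The lowered profile was near the GFP− level in replicate 2 and beyond it, away from GFP+ cells, in replicate 1. Its median share was −17.5% in replicate 1 and 0.351% in replicate 2, beside −18.6% to −4.04% in the IgG libraries of both genotypes. Summed over the 60 genes, replicate 1 held 7033 CPM and replicate 2 held 5843 CPM, against 5398 to 6175 CPM in GFP− libraries. Lower than all GFP− libraries were 10 of 60 genes (16.7%, beside 33.5% of all tested genes) in replicate 1 and 16 (26.7%, beside 26.4%) in replicate 2. Irs2, an adaptor of insulin and cytokine receptors, was shifted in part, with 181 and 113 CPM in treated Eomes-TKO cells, 21.2, 22.3 and 18.7 CPM in GFP+ cells and 247, 190 and 212 CPM in GFP− cells. Its shares were 18.1% and 53.0%, and the IgG libraries of both genotypes held 127 to 164 CPM, also under the GFP− range. Maff, a small Maf transcription factor named after its values were seen, had shares of 54.0% and 74.0%, with 9.68 and 6.26 CPM in treated Eomes-TKO cells, 1.66, 1.05 and 2.69 CPM in GFP+ cells and 21.1, 17.1 and 18.7 CPM in GFP− cells. Tgtp1, an interferon-induced GTPase, was at 152 and 210 CPM in treated Eomes-TKO cells, with shares of 38.2% and 9.58%. Nav2 and Ggt5 lay above the GFP− mean in both libraries, with shares of −38.7% and −25.6% for Nav2 and −39.2% and −12.8% for Ggt5.

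Set directly against GFP− cells, treated Eomes-TKO cells differed in 6 of 14059 genes (0.0427%), and 980 genes had an unadjusted p under 0.05. One of the 132 raised profile genes, Nr4a2, and none of the 60 lowered genes was among the 6. This comparison shares the treated Eomes-TKO libraries with the one against GFP+ cells. The 1 higher gene (0.00711%) was the unnamed gene Gm33707, which had no counts in any Eomes-GFP library and was found in Eomes-TKO cells under IgG too. The 5 lower genes (0.0356%) were Nr4a2, Tnfaip3, Rgs1, Dusp5 and Per1, with an adjusted p of 0.038 each, and all calls were lost without GFP− replicate 1 or without GFP− replicate 3, when 0 genes were called.

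Nr4a2, a nuclear receptor induced by antigen signals, was at 7.03 and 7.20 CPM in treated Eomes-TKO cells, at 124, 165 and 157 CPM in GFP+ cells and at 16.5, 15.1 and 17.1 CPM in GFP− cells. Both Eomes-TKO libraries were thus below both fractions, with log2 changes of −4.38 (SE 0.19, adjusted p = 1.07e-09) against GFP+ cells and −1.19 against GFP− cells. Rgs1, an inhibitor of chemokine receptor signals, was at 30.9 and 39.4 CPM in treated Eomes-TKO cells, at 181, 156 and 204 CPM in GFP+ cells and at 72.0, 76.8 and 71.8 CPM in GFP− cells. Tnfaip3, the A20 inhibitor of NF-κB, was at 623 and 443 CPM in treated Eomes-TKO cells, at 906, 812 and 823 CPM in GFP+ cells and at 1455, 1201 and 1328 CPM in GFP− cells. Dusp5, a phosphatase that limits ERK, was at 55.0 and 58.9 CPM in treated Eomes-TKO cells, at 130, 136 and 121 CPM in GFP+ cells and at 143, 97.8 and 119 CPM in GFP− cells. These genes were below both fractions in both Eomes-TKO libraries, a pattern found in 5.53% of all tested genes, beside 5.65% that were above both fractions. Cells under IgG were at a similar level, with 4.04 to 6.15 CPM of Nr4a2 and 28.7 to 38.9 CPM of Rgs1 over the 5 IgG libraries of both genotypes. The Tnfaip3 difference from GFP+ cells (log2 change −0.67, adjusted p = 0.0178) was lost without treated Eomes-TKO replicate 2 (adjusted p = 0.16), without GFP+ replicate 1 (adjusted p = 0.0607) and under upper-quartile scaling (adjusted p = 0.0816). Per1, a clock gene, was at 127 and 108 CPM in treated Eomes-TKO cells, 128, 103 and 126 CPM in GFP+ cells and 243, 212 and 223 CPM in GFP− cells, so it separated GFP− cells from both other groups.

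Many immediate early genes that were lower in GFP+ than in GFP− cells lay between the fractions. Of the 14 such genes called lower in GFP+ than in GFP− cells, 12 in replicate 1 and 9 in replicate 2 lay under all GFP− libraries, with median shares of 57.6% and 43.7%. Of all tested genes, 33.5% in replicate 1 and 26.4% in replicate 2 lay under all GFP− libraries. The same GFP− libraries helped choose the 14 genes, which favours values under them, so these counts stand as descriptions. The 3 immediate early genes called higher in GFP+ cells had median shares of −1.93% in replicate 1 and −0.869% in replicate 2. Junb, an AP-1 subunit, was at 1026 and 1193 CPM in treated Eomes-TKO cells, at 604, 543 and 647 CPM in GFP+ cells and at 2041, 1995 and 1906 CPM in GFP− cells. It was higher than in GFP+ cells by 0.89 (SE 0.18, adjusted p = 0.00145). Over the same 14 genes the median shares were 53.0%, 46.8% and 89.1% in Eomes-TKO cells under IgG. They were 48.5% and 52.0% in Eomes-GFP cells under IgG, so intermediate levels were also seen in undivided cells of both genotypes without the agonist. No difference between these libraries in the share was tested.

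**Figure D5:**
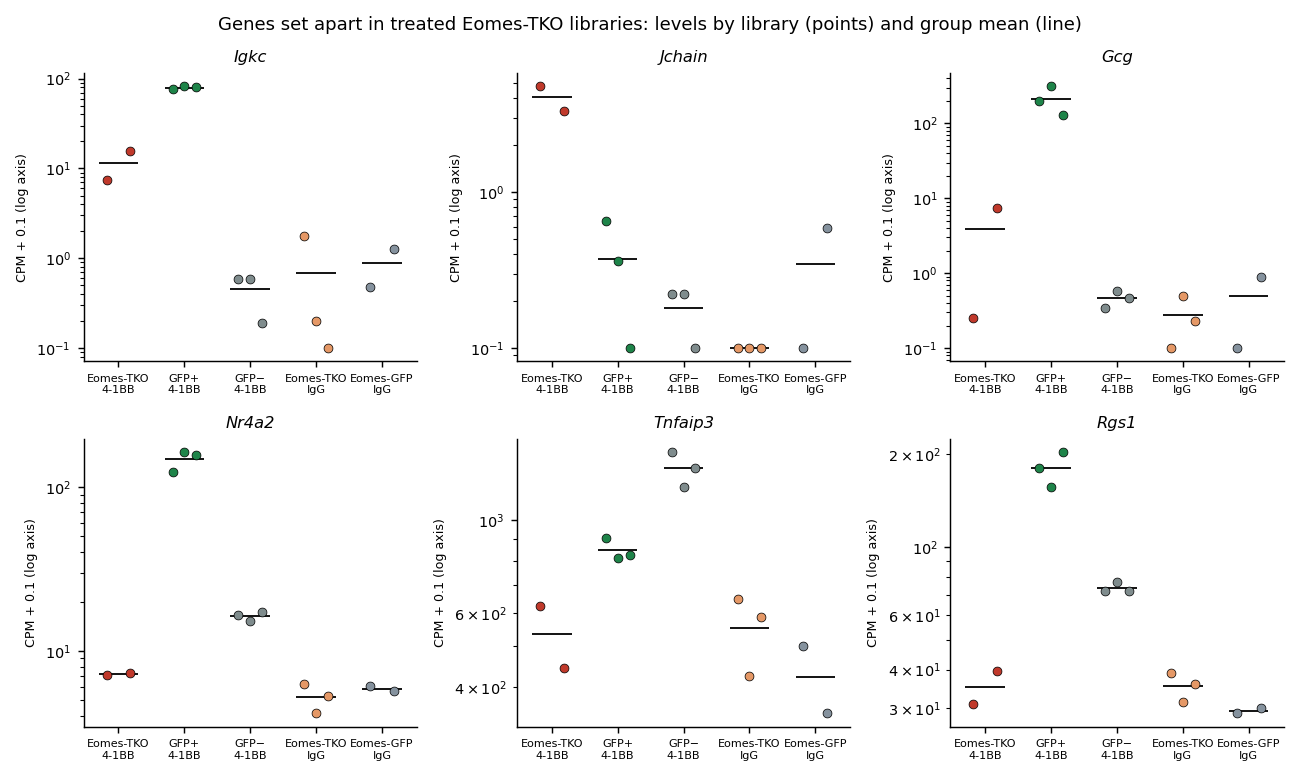
Levels of Igkc, Jchain, Gcg, Nr4a2, Tnfaip3 and Rgs1 in CPM plus 0.1 on a log axis, one point per library and a line at the group mean. For Igkc the 2 treated Eomes-TKO libraries lie between the GFP+ libraries and the rest, for Jchain above the GFP+ libraries, and for Nr4a2, Tnfaip3 and Rgs1 below both GFP+ and GFP− libraries and near the IgG libraries.

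The agonist response within Eomes-TKO cells, which uses neither GFP fraction, gave no called gene of the raised profile. Of 14059 genes, 6 (0.0427%) were called, all higher under the agonist and all of cell division: Spag5, Hmmr, Nusap1, Cdca8, Aspm and Ckap2, with 506 genes at an unadjusted p under 0.05. Hmmr, which encodes a spindle and hyaluronan binding protein, was at 5.62 and 12.8 CPM in treated Eomes-TKO cells and at 1.25, 1.78 and 1.86 CPM under IgG (log2 change 2.53, adjusted p = 0.0233). The count rose to 83 without treated Eomes-TKO replicate 1 and was 0 without replicate 2, without Eomes-TKO IgG replicate 2, or with only these 2 groups in the model. Over the 132 raised genes the median log2 fold change was 0.23, beside 0.004 over all genes, and 81 (61.4%) had a positive one, beside 50.8% of all genes. Gzmk was at 0.312 and 5.01 CPM in treated Eomes-TKO cells and at 0.521, 0.394 and 0.133 CPM under IgG, so that replicate 2 exceeded and replicate 1 fell within the IgG range (log2 change 2.99, adjusted p = 0.566).

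The genotypes under IgG, which share no library with the comparison of treated Eomes-TKO and GFP+ cells, differed in 2 of 14059 genes (0.0142%), with 430 at an unadjusted p under 0.05. Both were lower in Eomes-TKO cells: Eomes and the raised-profile gene Kcnc1, which was at 0.417, 0.592 and 0.664 CPM in Eomes-TKO cells under IgG and at 3.43 and 4.70 CPM in Eomes-GFP cells under IgG. The Kcnc1 groups did not overlap. Treated Eomes-TKO cells had 1 and 2 counts of Kcnc1, with exact 95% counting intervals that cover all values of Eomes-TKO cells under IgG. The count was 0 without Eomes-TKO IgG replicate 1, Eomes-TKO IgG replicate 2 or Eomes-GFP IgG replicate 2.

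Markers of other cell types were read beside these results. The 9 regulatory T cell markers split, with 5 higher (Foxp3, Il2ra, Ikzf4, Gpr83 and Nrp1) and 4 lower in treated Eomes-TKO cells, and summed to 163 and 237 CPM in treated Eomes-TKO cells and to 688, 797 and 692 CPM in GFP+ cells, a sum led by Ikzf2. Foxp3, the factor that defines these cells, was at 2.65 and 1.98 CPM in treated Eomes-TKO cells and at 0.554, 0.393 and 0.537 CPM in GFP+ cells. It rose by 2.18 (SE 0.58, adjusted p = 0.00883), a call lost without treated Eomes-TKO replicate 1 (adjusted p = 0.0602). Of 17 myeloid markers, 9 were tested, and Cd68, Itgam and Itgax fell while none rose (Itgax not without Eomes-TKO replicate 1 or GFP+ replicate 1, adjusted p = 0.149 and 0.0921), with sums of 23.3 and 28.2 CPM in treated Eomes-TKO cells and 64.0, 72.7 and 96.4 CPM in GFP+ cells. The 10 B cell markers summed to 8.28 and 16.2 CPM in treated Eomes-TKO cells and to 23.7, 14.5 and 15.2 CPM in GFP+ cells. Of 10 NK cell and innate lymphoid markers, 6 were tested and 4 rose, among them Klrb1c, which encodes NK1.1, at 3.75 and 4.28 CPM in treated Eomes-TKO cells and 0.554, 0.393 and 0.537 CPM in GFP+ cells. The NK list summed to 143 and 196 CPM in treated Eomes-TKO cells and to 115, 116 and 119 CPM in GFP+ cells, and Klra4 had no counts in any library. The part of these cell types in the differences was not tested.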

How the data were processed

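Estimated counts per gene, in 1 table covering all libraries, are what the authors deposited. The tools named in the submitters' processing notes are Salmon 1.5.2, STAR 2.7.10a, Trim Galore 0.6.7 and cutadapt 3.4, with the build GRCm39. Per the labels, libraries were made from 11 ng of total RNA after ribosomal RNA depletion. The table has 47 library columns, of which 34 were not used here because their names match no sample. Counts were rounded (6.25% to 7.33% of values per library were not whole).

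The test was the quasi-likelihood F-test of edgeR 4.0.16 under R 4.3.3, robust and two-sided, after TMM scaling and filterByExpr, on 13 libraries in 1 model of 5 groups (8 residual degrees of freedom). P-values were Benjamini-Hochberg adjusted over 14059 genes and called at 0.05 or less. SE is the absolute log2 change over the square root of F. The test was checked on simulated data for the comparison with GFP+ cells (13814 genes). It recovered 62 of 67 genes at 4-fold, 43 of 67 at 2-fold and 17 of 66 at 1.5-fold, and made 7 false calls. The changed genes were few beside the 4859 called in the data, went in both directions and were drawn from genes above a minimum level. The check thus does not cover a difference as wide as that of these data.

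Alternatives used DESeq2 1.42.0, limma 3.58.1, other scalings, filters, fold thresholds, a replicate block and left-out libraries. Treated Eomes-TKO and GFP+ libraries of one number come from different animals, and their deviations from the group means correlated at 0.15 and 0.08. Replicates differed beyond counting noise (chi-square over its degrees of freedom 7.74 to 29.2). Counting error is the only error that intervals and floors cover.

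Genes with related copies, such as Ccl3 and Ccl4, the Klr and the immunoglobulin genes, are uncertain where reads could be shared, and strand use in counting is not given in the sources used here. Promoters come from RefSeq on GRCm38.p6, an older build than that of the files, and 91 of the 132 raised genes matched that table.

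The members, lists and tests were chosen with earlier results of these data known. Genes were named by a rule: up to 15 per direction with the largest change among called, non-overlapping, named genes whose mean log2 CPM reached 2 (up to 6 in other comparisons), the 10 highest and lowest traced shares, the 4 list members with the largest change, and Eomes, Gzmk, Ret, Tcf7, Foxp3, Slamf6, Tbx21 and Tnfrsf9. Other genes given by value were chosen for their known roles, or as the highest traced share of a list, after their values were seen. Some genes of the lists are not reported here by name.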

Additional observations from a re-analysis of the deposited data

How the results depend on the processing

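Of 2853 alternative values for 204 named genes against GFP+ cells, 2738 kept direction and side of the threshold, 99 lost and 8 gained the call, and 8 changed sign without being called on either side. Per1, at −0.02 as reported, was at 0.14 under upper-quartile scaling, 0.020 with only both groups in the model and −0.11 to 0.092 with 1 library left out. Klf2, at 0.13, ran from −0.053 to 0.32 and Itgb1, at −0.45, from −1.20 to 0.066 with 1 library left out. Pou2af1, at 0.14, ran from −0.15 to 0.39 with 1 library left out. The cause was not tested.

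Calls against GFP+ cells fell to 2153 at a fold threshold of 1.5 and ranged from 3060 to 4499 with 1 library left out. Calls of GFP+ against GFP− cells were 2146 at that threshold and 4188 to 4612 with 1 library left out. The 6 calls against GFP− cells became 0 under upper-quartile scaling, limma-voom or the fold threshold, 52 with DESeq2, 220 with no filter and 0 to 15 with 1 library left out. The 6 calls against Eomes-TKO cells under IgG became 10 under upper-quartile scaling, 0 with limma-voom, the fold threshold or only both groups, 63 with DESeq2, 258 with no filter and 0 to 83 with 1 library left out. The 2 genotype calls under IgG became 5 with DESeq2, 0 with limma-voom, 112 with no filter, 1 at the fold threshold, 1 with only both groups and 0 to 5 with 1 library left out.

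With the replicate block, calls were 4967 against GFP+ cells, 12 against GFP− cells, 15 against Eomes-TKO cells under IgG, 2 between genotypes and 5401 between fractions, and no named gene changed its call against GFP+ cells. Numbers do not pair animals across genotypes, so between Eomes-TKO and Eomes-GFP libraries the block is no paired analysis. GFP+ and GFP− libraries of one number carry the same number in their library names, and their deviations from the group means correlated at 0.40, 0.11 and 0.05.

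Median raised shares in Eomes-TKO replicates 1 and 2 were −9.99% and 4.87% on the log2(CPM + 1) scale, and −3.50% and 0.285% with genes of log2 fold change 2 or more. With 1 library left out they were −1.68% to −1.25% and 0.596% to 1.22%. Lowered shares ranged from −18.1% to −11.0% and from −0.841% to 2.81%. With named genes only, chosen after seeing the data, they were −8.73% and −2.88%. A group of 2 libraries, floors near 0.3 CPM and the lack of a treated undivided Eomes-GFP library limit what a small trace can show.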
